A study of Mus musculus with 14 samples.

Results

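The response of induced hepatic stem cells to endothelial-like cells was compared between flat culture and hydrogel spheroids. For each gene, the change between the co-culture and the culture of hepatic cells alone was taken in 3D and in 2D, and the difference between these changes, called the interaction here, was tested. It used 8 of the 14 libraries of the series, with 2 libraries in each of 4 conditions: 2D-iHepSC (2D-iH), 2D-iHepSCiEC (2D-iHE), 3D-iHA (iHLO, the organoid of hepatic cells alone) and 3D-iHEA (iHEA, the assembloid). The column of 1 iHEA library carries a bracketed number that the labels give to the other, so it was placed by its condition name alone and is called the second iHEA library. Of 28022 genes in the count table, 13409 averaged 3 or more as log2(count + 1) in the 8 libraries and entered the test. The genes next to this limit were *Rem2* at 3.0002 and *Ppp4r4* at 3.0025 inside it, and *Fbxl7* at 2.9995 and *Ttc34* at 2.998 outside it.

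All 4 conditions shared their hepatic cells, which were converted from C57BL/6J mouse embryonic fibroblasts with lentiviral *Oct4* and *Hnf4α*, and they shared the assembloid medium, which contains oncostatin M. The endothelial-like cells (iECs) were converted with *ETV2* from the human fibroblast line HF1 and sorted for endothelial surface proteins, so both co-cultures mixed mouse and human cells while the reads were aligned to the mouse genome alone. A read from a human cell could be counted where it aligned to a mouse gene, and such reads cannot be told apart from those of the mouse cells. The 2D co-culture grew on type I collagen, and the 3D cultures grew in a hydrogel of collagen and Matrigel. The paper does not name the surface of the 2D culture of hepatic cells alone. Nothing in the labels says that the libraries of a condition came from separate cultures, so the p-values measure the spread between these libraries, which may be technical.

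In the liver, hepatocytes face sinusoidal endothelial cells across a thin matrix-filled space. Endothelial cells send growth factors, BMP and Wnt ligands to the hepatocytes, and hepatic progenitors can take a hepatocyte or a bile duct (cholangiocyte) fate depending on such signals, on matrix and on cell contact. Oncostatin M acts through gp130 and STAT3, which drive acute phase genes, and interferons act on genes that carry GAS or ISRE elements. A flat sheet and a spheroid differ in matrix contact, polarity and oxygen supply, and a response seen in one format may be absent in the other.

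The 8 libraries held 20851489 to 35143325 counts, where 3 counts correspond to 0.0854 to 0.144 CPM, the counts scaled to a common library size. The iHEA libraries stood apart from each other more than those of the other conditions, with a chi-square statistic per gene of 11.2 against 3.3 to 3.58 (about 1 from sampling noise). The 23 endothelial markers summed to 753 and 755 CPM in 2D-iH against 678 and 674 in 2D-iHE, while iHLO had 1640 and 1810 and iHEA 1310 and 1250, so their sum was higher in the cultures without iECs than in their co-cultures, and 3 to 7 of the 23 were at 0 in a library. Much of each sum came from *Cdh5* and, in 3D, *Vwf*. Single markers went the other way, as *Ets1*, *Eng* and *Lyve1* were higher, relative to library size, in both 2D-iHE libraries than in both 2D-iH libraries. *Cldn5* and *Etv2* had 0 counts in all 8 libraries, and 1 of 15 tested endothelial markers (6.67%) was called for the interaction, against 3.14% of all tested genes. Of these 15, 4 were called lower in iHEA than in iHLO and 4 lower in 2D-iHE than in 2D-iH, with none called higher. The 22 fibroblast and mesenchymal markers summed to 2010 and 2060 CPM in 2D-iH against 2470 and 2340 in 2D-iHE, while iHLO had 1130 and 1030 and iHEA 1390 and 938, with 1 to 5 of them at 0 in a library, and their part in the results below was not tested. These sums rested mostly on *Vim* and *Fn1*, with 58862 and 6572 counts in the first 2D-iH library. In such bulk libraries, fewer cells of a type and less RNA per cell cannot be told apart. The hepatocyte label was met in part. Of 30 hepatocyte markers, 15 passed the count filter. *Apob* had 8622 to 22874 counts in the 8 libraries and *Foxa2* 1667 to 2800, while *Serpina1a* had 0 to 3 and *Pck1* 0 to 12. *Hnf4a* had 4117 to 7670 counts, but it was also delivered as a lentiviral gene. *Alb*, the main plasma protein of hepatocytes, had 210 counts in the first 2D-iH library and 2 to 20 in the other 7.

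The interaction was called for 421 genes, 3.14% of those tested (adjusted p under 0.05, edgeR's quasi-likelihood test with Benjamini-Hochberg adjustment). It was higher in 3D for 204 genes (1.52%) and lower for 217 genes (1.62%), words that refer here to the response to iECs and not to the level of a gene. The response to iECs itself was called for 303 genes in 3D (2.26%), 160 higher and 143 lower in iHEA, and for 1096 genes in 2D (8.17%), 571 higher and 525 lower in 2D-iHE. Of the 421 genes, 301 had a called response in 2D and none called in 3D, 57 had one in 3D and none called in 2D, 23 had called responses of opposite sign, 9 had called responses of the same sign and unequal size, and 31 had a called response in neither format. Most of the differences were small, with a median absolute log2 difference of 0.55, and 59 genes had one of at least 1 (43 higher, 16 lower). In all 421 genes the differences between single libraries did not overlap between the formats. This was seen in the same libraries as the test, so it adds no support. Its share over all tested genes was not counted. A call in one format alone did not make a difference between formats, since 696 genes called in 2D and not in 3D, and 147 called in 3D and not in 2D, had no called interaction. The counts changed when a library was left out: without any one library of 2D-iH, 2D-iHE or iHLO, 129 to 203 genes were called, while without the first or the second iHEA library, 963 and 801 were.

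**Figure D1:**
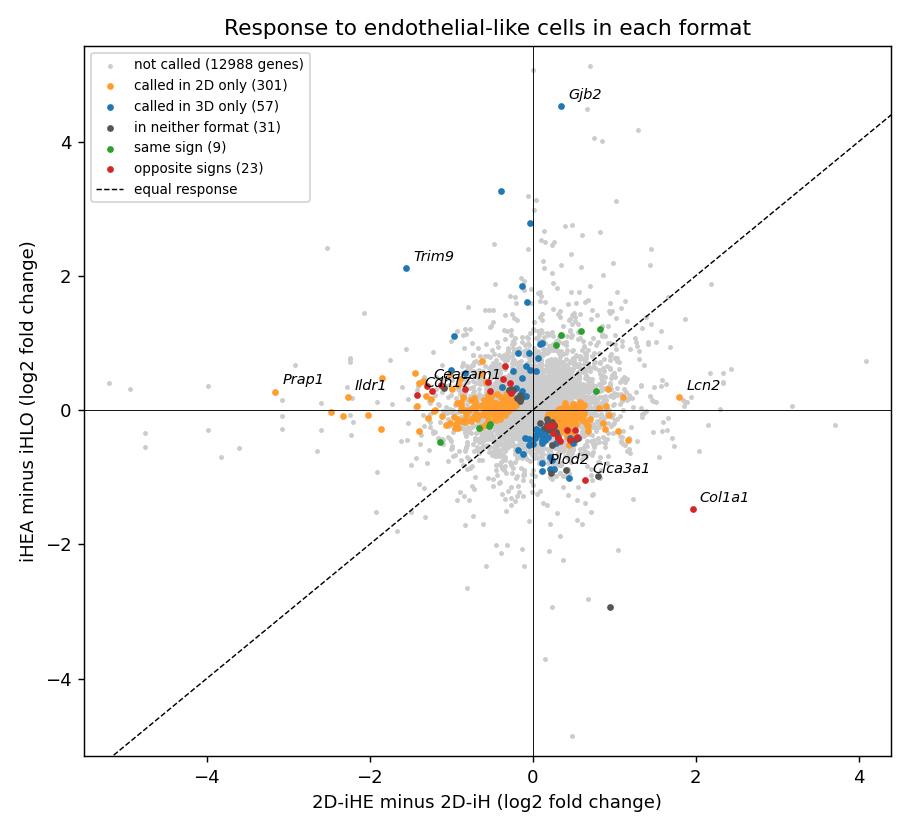
Log2 fold change in 2D (2D-iHE minus 2D-iH, x axis) against that in 3D (iHEA minus iHLO, y axis) for the 13409 tested genes, 1 point a gene, with the 421 interaction calls colored by class and the dashed line marking an equal response. The 301 genes called in 2D alone lie along the horizontal axis, the 57 called in 3D alone along the vertical axis, and the 23 with opposite signs in the upper left and lower right.

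Among the genes with opposite responses, 11 fell in the flat co-culture and rose in the assembloid. *Ceacam1*, a cell adhesion glycoprotein of hepatocyte canalicular and other apical membranes (chromosome 7 of GRCm38, from 25461707 to 25477603), had 141 and 153 CPM in 2D-iH against 59.0 and 60.6 in 2D-iHE, while iHLO had 528 and 557 and iHEA 645 and 749. Both co-culture libraries were below both libraries of hepatic cells alone in 2D and above them in 3D. Its log2 fold change was -1.30 ± 0.074 (SE, 2 libraries each) in 2D and 0.36 ± 0.068 in 3D, an interaction of 1.66 ± 0.10 (adjusted p = 3.71e-06). *Cdh17*, the liver-intestine cadherin (chromosome 4, from 11758147 to 11817895), had 113 and 122 CPM in 2D-iH against 44.4 and 43.2 in 2D-iHE, and 205 and 222 in iHLO against 249 and 252 in iHEA. It fell by 1.42 on the log2 scale in 2D and rose by 0.23 in 3D, an interaction of 1.65 ± 0.081 (adjusted p = 7.53e-07). The 3D rise was near the limit of a call (adjusted p = 0.0466 with edgeR). It was not called by limma voom or with all 14 libraries, where the interaction was kept.

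The same pattern was found at lower counts in *Trpv3*, a calcium-permeable channel of epithelial cells, which had 3.75 and 3.91 CPM in 2D-iH against 1.60 and 2.00 in 2D-iHE, while iHLO had 29.3 and 28.7 and iHEA 36.1 and 38.8 (interaction 1.49, adjusted p = 0.000516). *Ms4a8a*, a membrane protein of the MS4A family, differed by 1.15 (adjusted p = 0.00117) and the uncharacterized gene *2210407C18Rik* by 1.51 (adjusted p = 0.00423). The latter lost its call without the first 2D-iHE library, and its difference lay between 1.14 and 1.82 over the 8 fits without 1 library. The other 6 genes of this direction, named after their values were seen, were *Mal2*, which acts in transport to the apical membrane, *Plekhs1*, *Stmn2*, a microtubule-binding protein, *Naip1*, an inflammasome sensor, *Myh14*, a non-muscle myosin heavy chain, and *Tmsb4x*, an actin-sequestering peptide, with interactions of 0.99, 0.98, 0.83, 0.81, 0.68 and 0.53. *Mal2*, *Stmn2* and *Myh14* had the larger change in 3D, where *Mal2* went from 46.1 and 47.1 CPM in iHLO to 62.5 and 84.7 in iHEA, with no overlap although the iHEA libraries stood apart from each other.

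The remaining 12 genes rose in the flat co-culture and fell in the assembloid. *Clca3a1*, a secreted regulator of chloride channels (chromosome 3, from 144729677 to 144760977), had 46.4 and 44.7 CPM in 2D-iH against 70.3 and 72.7 in 2D-iHE, while iHLO had 149 and 146 and iHEA 67.6 and 76.2. The assembloid thus had the level of the flat co-culture, and the organoid without iECs stood above all others. The gene rose by 0.65 ± 0.063 in 2D and fell by 1.04 in 3D, an interaction of -1.69 ± 0.086 (adjusted p = 7.53e-07). *Col1a1*, the main chain of type I collagen (chromosome 11, from 94936224 to 94953042), had 2.86 and 3.25 CPM in 2D-iH against 12.6 and 11.2 in 2D-iHE, while iHLO had 2.05 and 1.39 and iHEA 0.828 and 0.373. Its interaction was -3.44 ± 0.38 (adjusted p = 0.000498) and rested on 59 and 39 counts in iHLO against 24 and 9 in iHEA. The fall in 3D (adjusted p = 0.0382 with edgeR) was not called by limma voom or with all 14 libraries, where the interaction was kept. The levels of *Col1a1* in the cultures were below the mean of 12100 CPM in the fibroblasts of the series.

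*Ace*, the angiotensin-converting enzyme, had 20.0 and 21.7 CPM in 2D-iH against 27.5 and 30.4 in 2D-iHE, while iHLO had 314 and 262 and iHEA 210 and 215 (interaction -0.90, adjusted p = 0.00194). *Car9*, a carbonic anhydrase of the cell surface and a classical target of hypoxia-inducible factor (chromosome 4, from 43506966 to 43513729), had 89.0 and 100 CPM in 2D-iH against 137 and 133 in 2D-iHE, while iHLO had 80.3 and 78.1 and iHEA 63.7 and 65.6. It had its highest level in the flat co-culture and its lowest in the assembloid, with an interaction of -0.81 ± 0.084 (adjusted p = 0.00027). *AU021092* differed by -0.95 (adjusted p = 0.00252). The other 7 genes, named after their values were seen, were *Krt80*, a keratin, *Pear1*, a platelet and endothelial receptor, *Hpse*, the heparan sulfate-cleaving heparanase, *H6pd*, which makes NADPH in the endoplasmic reticulum, *Pxdn*, which crosslinks collagen IV, *Cdc42ep1*, a CDC42 effector, and *Ehd2*, a protein of caveolae, with interactions of -0.79, -0.73, -0.73, -0.72, -0.59, -0.47 and -0.42.

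All 23 genes stayed interaction calls in 7 of the 8 fits without 1 library, and 21 did without the first 2D-iHE library. The call of both single responses was less stable: without 1 library of 2D-iH, 2D-iHE or iHLO, 3 to 10 of the 23 had both responses called with opposite sign. Without the first and the second iHEA library these were 23 and 17.

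**Figure D2:**
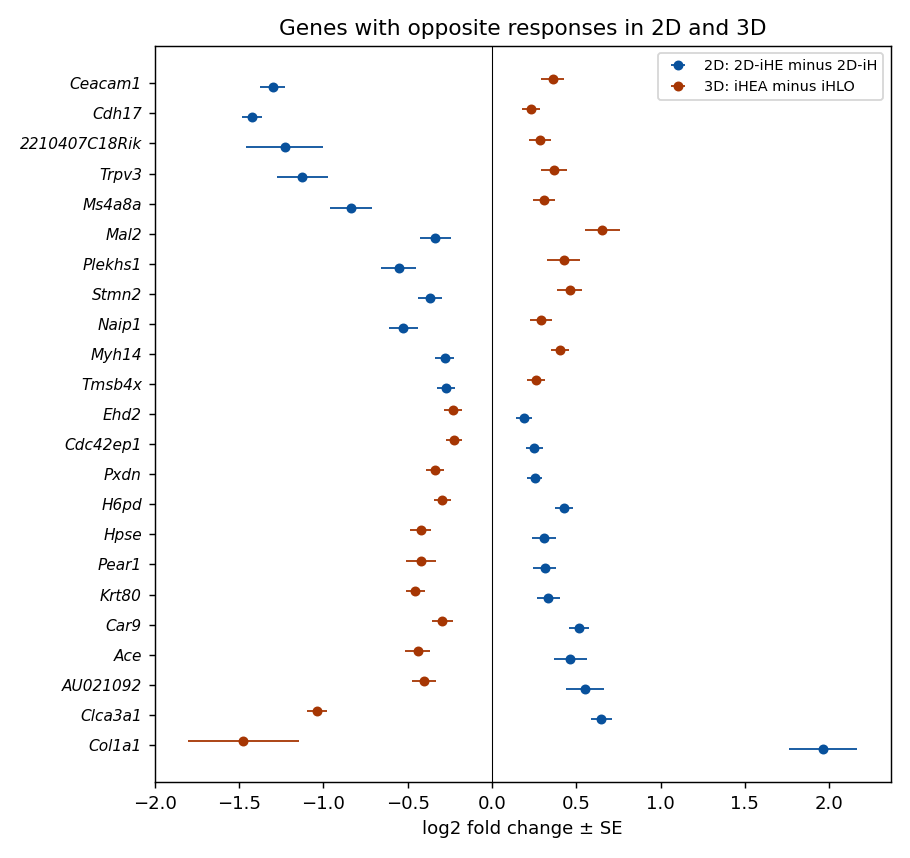
Log2 fold change with its standard error for the 23 genes with opposite responses, in 2D (2D-iHE minus 2D-iH, blue) and in 3D (iHEA minus iHLO, brown), ordered by the interaction. Besides *Clca3a1* and *Col1a1*, the 3D changes reached at most 0.65 in absolute value, in *Mal2*, while 5 genes had an absolute change of at least 1 in 2D.

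In the 57 genes with a called response in 3D and none called in 2D, 24 rose and 33 fell in the assembloid. The largest increases came from genes with few counts. *Gjb2*, a gap junction protein of hepatocytes, had 1 count in both iHLO libraries together and 27 in both iHEA libraries, a ratio of 29.3 with a 95% counting interval of 4.83 to 1200 (exact binomial), and 0.646, 0.977, 1.11 and 0.907 CPM in the 2D libraries. Its interaction (adjusted p = 0.0496) was kept in 1 of the 8 fits without 1 library and was not called by DESeq2. *Trim9*, a ubiquitin ligase, had 1.39 and 0.641 CPM in iHLO and 5.14 and 3.69 in iHEA, against 0.369 and 0.384 in 2D-iH and 0.114 and 0.143 in 2D-iHE (interaction 3.67, adjusted p = 0.0142), and was kept in 4 of 8 such fits and not called by DESeq2. *Ndn*, an imprinted growth suppressor, had 0.174 and 0.214 CPM in iHLO and 1.66 and 1.04 in iHEA (interaction 2.82, adjusted p = 0.0163), kept in 3 of 8 and not called by DESeq2.

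*Epcam*, an adhesion protein of cholangiocytes and hepatic progenitors (chromosome 17, from 87635979 to 87651129), had 14.6 and 17.1 CPM in 2D-iH against 13.8 and 12.9 in 2D-iHE, while iHLO had 240 and 246 and iHEA 336 and 392. It rose by 0.58 ± 0.071 in 3D (adjusted p = 0.00106), and its interaction of 0.82 ± 0.13 (adjusted p = 0.0047) was called in all 8 fits without 1 library. *Sox9*, the transcription factor of bile duct and progenitor cells, had 1.08 and 1.21 CPM in iHLO against 5.62 and 2.49 in iHEA, and 7.79, 8.20, 7.95 and 6.49 in the 2D libraries. The iHEA libraries were both above iHLO but stood apart from each other, and the interaction of 1.98 (adjusted p = 0.0222) was kept in 2 of 8 fits. *Dsg3*, a desmosomal cadherin, went from 10.4 and 8.51 CPM in iHLO to 19.4 and 21.5 in iHEA (interaction 2.07, adjusted p = 0.0231, kept in 4 of 8). Part of this interaction came from few counts in 2D, with 15 and 13 in 2D-iH against 7 and 6 in 2D-iHE. The 2D change of -0.97 was not called (adjusted p = 0.2 with edgeR).

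Of the genes that fell in the assembloid, *Plod2*, the lysyl hydroxylase that prepares collagen for stable crosslinks (chromosome 9, from 92542223 to 92608428), had 140 and 122 CPM in iHLO and 69.3 and 70.3 in iHEA, while 2D-iH had 154 and 148 and 2D-iHE 160 and 169. The assembloid was below the other 6 libraries, with a log2 fold change of -0.90 ± 0.065 in 3D, 0.12 ± 0.062 in 2D, and an interaction of -1.02 ± 0.090 (adjusted p = 0.000112). *Apcdd1*, a secreted-ligand inhibitor of Wnt signaling, had 18.7 and 14.6 CPM in iHLO, 8.04 and 8.49 in iHEA, 7.23 and 7.22 in 2D-iH, and 10.7 and 8.69 in 2D-iHE (interaction -1.46, adjusted p = 0.00185). *Armcx4* differed by -1.10 (adjusted p = 0.00488). These 3 were called in all 8 fits without 1 library, while *Iigp1*, an interferon-inducible GTPase (interaction -0.99, adjusted p = 0.0499), was kept in 3.

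The 301 genes with a called response in 2D and none called in 3D divided evenly, with 152 lower and 149 higher in 2D-iHE. Among the lower, *Ildr1*, a protein of tricellular junctions (chromosome 16, from 36693978 to 36726804), had 2.80 and 3.46 CPM in 2D-iH against 0.570 and 0.764 in 2D-iHE, while iHLO had 42.9 and 48.8 and iHEA 52.1 and 52.8. It fell by 2.27 in 2D and differed by 0.19 ± 0.076 in 3D (adjusted p = 0.29), an interaction of 2.46 ± 0.24 (adjusted p = 0.000211). *Serpinb11* had 12.0 and 12.98 CPM in 2D-iH against 2.19 and 2.34 in 2D-iHE, while iHLO had 3.06 and 3.81 and iHEA 3.69 and 3.02 (interaction 2.44, adjusted p = 0.000204). The flat co-culture of this serpin family gene lay below all 4 libraries of the 3D cultures, which in turn lay below the flat culture without iECs. *Clca4a*, of the same family as *Clca3a1*, fell in 2D as well, from 3.23 and 3.35 CPM to 0.912 and 0.907 (interaction 2.32, adjusted p = 0.00321, not called by DESeq2). *Clca3b*, a further member named here after its values were seen, fell from 38.7 and 38.3 to 13.4 and 15.2 CPM in 2D (interaction 2.00, adjusted p = 7.99e-05), whereas *Clca3a1* rose in 2D. *Prap1*, a lipid-binding protein of the gut epithelium, had 67.8 to 90.3 CPM in the 3D libraries and under 1 in every 2D library, with 15 and 26 counts in 2D-iH and 3 and 1 in 2D-iHE (interaction 3.43, adjusted p = 0.0142), and lost its call without the second 2D-iH library or either 2D-iHE library, with a difference of at least 2.91 in each of the 8 fits. *Ifitm6* (interaction 2.24, adjusted p = 0.0474) had the same form and was kept in 2 of 8 fits.

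Of the 149 genes that rose in 2D-iHE, *Lamb1*, a chain of the basement membrane laminins (chromosome 12, from 31265234 to 31329644), had 32.4 and 34.1 CPM in 2D-iH against 64.3 and 56.7 in 2D-iHE, while iHLO had 67.5 and 62.3 and iHEA 58.7 and 55.3. The flat co-culture overlapped with both 3D cultures and lay above the flat culture without iECs, with a change of 0.87 ± 0.073 in 2D, -0.19 ± 0.070 in 3D (adjusted p = 0.261) and an interaction of -1.06 ± 0.10 (adjusted p = 0.000204). *Fam107a*, an actin-binding protein, rose from 6.43 and 6.49 CPM to 11.3 and 12.9 in 2D and had 58.0 and 54.1 in iHLO and 47.5 and 45.2 in iHEA (interaction -1.16, adjusted p = 0.000258). *Lcn2*, an iron-chelating acute phase protein, had 7.36 and 7.54 CPM in 2D-iH against 26.4 and 25.3 in 2D-iHE, while iHLO had 228 and 160 and iHEA 266 and 176. Its 3D cultures overlapped, and its interaction of -1.61 (adjusted p = 0.0126) was kept in 4 of 8 fits. *Gbp5*, a guanylate-binding protein induced by interferon, went from 4.12 and 4.96 CPM to 7.89 and 11.2 in 2D and from 17.0 and 20.6 to 13.98 and 16.5 in 3D (interaction -1.35, adjusted p = 0.008), lost without the first 2D-iH library, with a difference between -1.60 and -1.10 over the 8 fits. *Smtnl2* (interaction -1.62, adjusted p = 0.0391) was kept in 3 of 8 and not called by DESeq2 or with all 14 libraries.

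**Figure D3:**
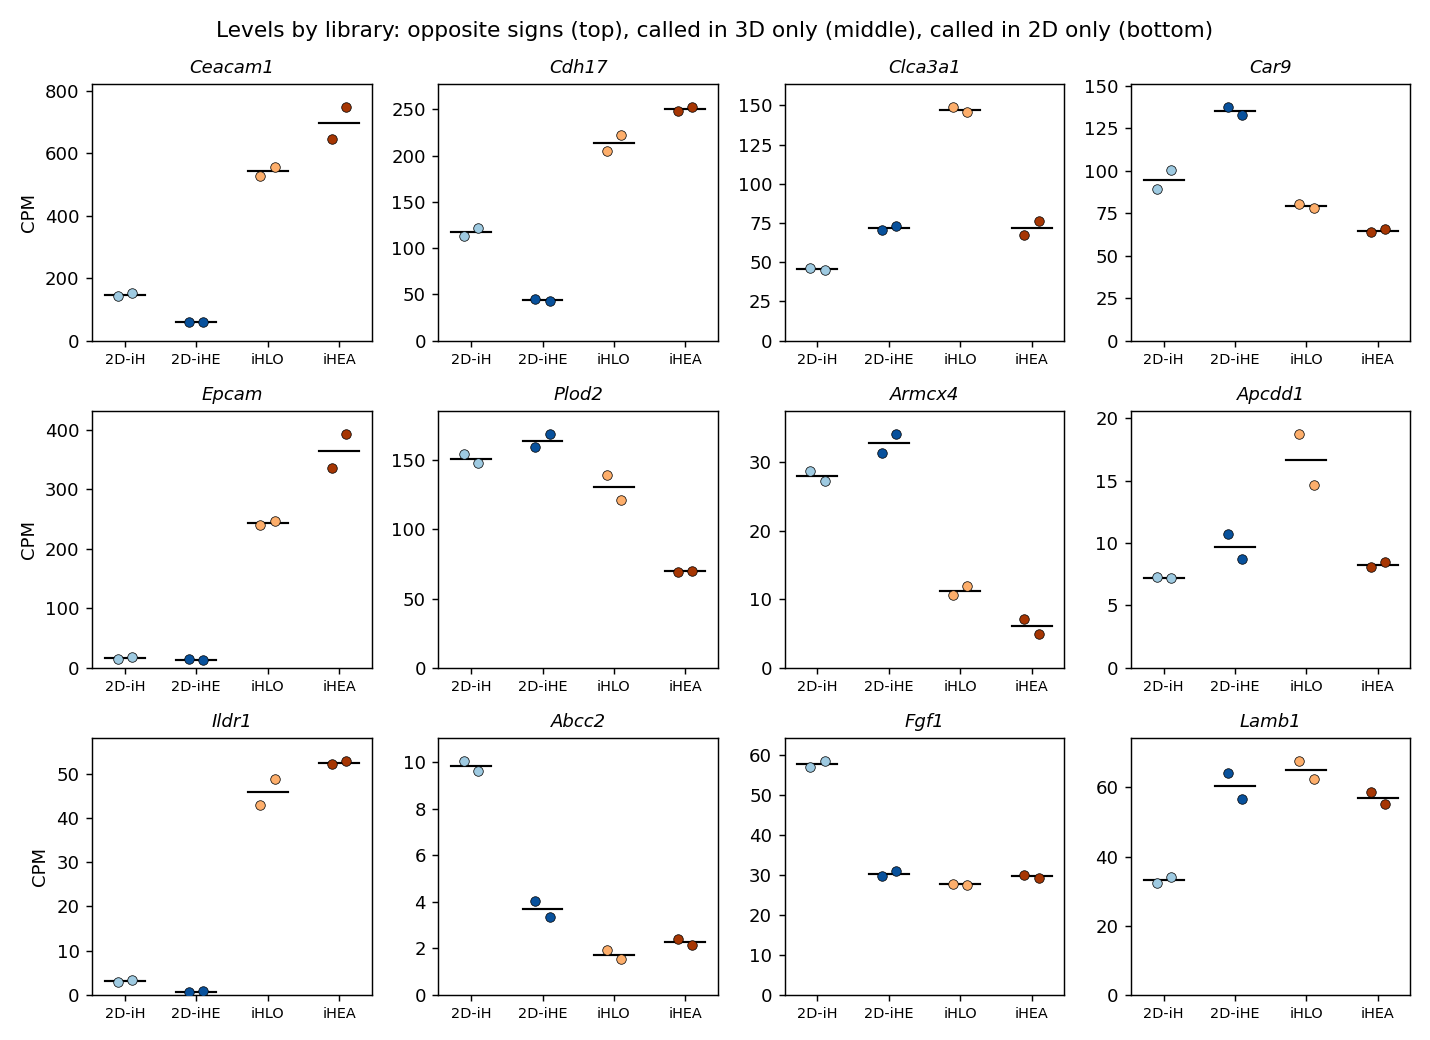
CPM of 12 genes in each of the 8 libraries (points) with the mean of each condition (horizontal lines), for 4 genes with opposite signs in the top row, 4 called in 3D alone in the middle and 4 called in 2D alone at the bottom. *Clca3a1* shows an iHEA level of 67.6 and 76.2 CPM beside 70.3 and 72.7 in 2D-iHE, and *Lamb1* shows 2D-iH at 32.4 and 34.1 CPM below the other 3 conditions.

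Genes that responded in both formats with unequal size were few. *Slc40a1*, the iron exporter ferroportin, had 32.3 and 30.4 CPM in 2D-iH against 37.4 and 39.3 in 2D-iHE, while iHLO had 8.04 and 7.30 and iHEA 15.4 and 14.8, a rise of 0.29 in 2D and 0.975 in 3D (interaction 0.69, adjusted p = 0.00603). *Wnt7b*, a Wnt ligand of epithelia, rose by 0.82 in 2D and 1.22 in 3D (interaction 0.39, adjusted p = 0.0346) and *Havcr2*, an immune checkpoint receptor, by 0.35 and 1.12 (interaction 0.77, adjusted p = 0.0404), kept in 2 and 1 of 8 fits. *Tgm2*, a protein-crosslinking transglutaminase, had the larger rise in 2D, 0.78 against 0.28 (interaction -0.50, adjusted p = 0.00797), kept in 5 of 8. In the class with neither response called, *Alpl*, tissue-nonspecific alkaline phosphatase, differed by 1.43, *Gipc2* by 0.59, *Grap* by -1.77, and each was kept in 2 of 8 fits, with *Grap* not called by DESeq2. *Ctla2a*, a cathepsin inhibitor, had 18 counts in the iHLO libraries and 2 in the iHEA libraries together, a ratio of 0.121 with a 95% counting interval of 0.0136 to 0.504, and was not called by DESeq2.

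Gene lists of pathways and cell types were read next, and 68 of their 735 tested genes (9.25%) were called, against 3.14% of all tested genes, or 31 to 42 without 1 library of 2D-iH, 2D-iHE or iHLO and 152 and 142 without the first and the second iHEA library. The lists were chosen with earlier results of these data known, so these shares are no evidence of enrichment. The interferon response and MHC class I genes were called in one direction. Of 32 tested genes of this list, 7 (21.9%) were called for the interaction, all lower in 3D, with a median interaction of -0.39 over the list against 0.00 over all tested genes. In 2D-iHE, 14 of the 32 rose and 1 fell, with a median log2 fold change of 0.26, while in iHEA none was called by edgeR, with 8 at an unadjusted p under 0.05 and a median of -0.10. *Bst2*, the antiviral membrane protein tetherin, had 116 and 142 CPM in 2D-iH against 183 and 172 in 2D-iHE, while iHLO had 224 and 211 and iHEA 206 and 181 (interaction -0.63, adjusted p = 0.0142). *Ifi44* differed by -0.69, *Usp18*, which limits interferon signaling, by -0.55 and *Rtp4* by -0.40. The other 3, named after their values were seen, were the transcription factors *Stat2* and *Irf1*, at -0.38 and -0.32, and the RNA sensor *Ddx58*, at -0.39. In *Stat2* the flat co-culture rose from 225 and 240 to 294 and 298 CPM, while iHLO had 420 and 443 and iHEA 424 and 421. The count varied between 0 and 8 when 1 library of 2D-iH, 2D-iHE or iHLO was left out. It was 0 without the second 2D-iHE library, 1 without the first 2D-iH or the second iHLO library and 2 without the first iHLO library, and it was 20 and 15 without the first and the second iHEA library.

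Promoter letters are given for genes of this list and for *Gbp5* because they moved in one direction. RefSeq windows of GRCm38.p6 were found for 10298 of the 13409 tested genes, and the 250 bases before the start were searched on both strands for GAS (TTCNNNGAA) and the 10-letter ISRE, the interferon-stimulated response element. GAS letters were in 5.7% of all windows and ISRE letters in 2.75%. Of the 113 windows of genes that rose in 2D-iHE alone, 12 (10.6%) held GAS and 10 (8.85%) held ISRE letters, and of the 116 windows of genes that fell in 2D-iHE alone, 6 (5.17%) held GAS and 3 (2.59%) held ISRE letters. Of the 25 windows of the interferon list, 5 (20%) held GAS and 11 (44%) held ISRE letters, and of the 5 windows of its called genes, 2 (40%) held each, so the called genes did not hold ISRE letters more often than their list. Other motifs were searched as well. Of the 315 windows of all interaction calls, 9.52% held AP-1 letters (TGANTCA), against 4.53% of all windows. CRE letters (TGACGTCA) went the other way, with 1.27% against 2.8%, and the remaining motifs besides the hypoxia element are not given here. These shares are descriptions without a test, and a match is not a binding site. The windows of the named genes with matches, read 5′ to 3′ on the strand of the gene with GAS and ISRE letters in capitals, are the following. In *Bst2* the 3 matches overlap, and the RefSeq start of *Gbp5* lies 2956 bases inside the GENCODE gene.
Bst2, chr8:71537473-71537722, - strand: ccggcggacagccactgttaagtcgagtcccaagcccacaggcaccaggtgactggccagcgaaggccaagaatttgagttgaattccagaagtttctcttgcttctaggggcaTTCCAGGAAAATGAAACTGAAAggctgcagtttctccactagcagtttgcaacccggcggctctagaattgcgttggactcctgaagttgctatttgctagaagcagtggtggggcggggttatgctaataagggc
Gbp5, chr3:142496684-142496933, + strand: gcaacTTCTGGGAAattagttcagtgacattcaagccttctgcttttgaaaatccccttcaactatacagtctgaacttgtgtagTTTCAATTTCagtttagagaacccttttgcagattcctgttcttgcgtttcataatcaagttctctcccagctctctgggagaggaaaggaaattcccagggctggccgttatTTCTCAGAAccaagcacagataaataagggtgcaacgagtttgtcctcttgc
Stat2, chr10:128270248-128270497, + strand: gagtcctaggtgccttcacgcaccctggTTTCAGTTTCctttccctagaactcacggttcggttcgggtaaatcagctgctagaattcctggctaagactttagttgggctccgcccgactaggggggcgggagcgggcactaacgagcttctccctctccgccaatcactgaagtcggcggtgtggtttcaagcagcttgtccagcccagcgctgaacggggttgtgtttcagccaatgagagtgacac
Irf1, chr11:53769764-53770013, + strand: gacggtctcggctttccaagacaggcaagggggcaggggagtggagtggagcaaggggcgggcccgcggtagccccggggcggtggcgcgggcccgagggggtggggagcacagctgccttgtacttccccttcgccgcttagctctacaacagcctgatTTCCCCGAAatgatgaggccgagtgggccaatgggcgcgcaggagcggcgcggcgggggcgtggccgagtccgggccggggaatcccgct

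Acute phase genes and the oncostatin M pathway gave a similar account. Of 21 tested genes, 5 (23.8%) were called for the interaction, all lower in 3D, with a median of -0.44, and 6 rose in 2D-iHE with none falling, while 1 fell in iHEA. *Cp*, the copper-carrying ferroxidase ceruloplasmin, had 123 and 122 CPM in 2D-iH against 178 and 194 in 2D-iHE, while iHLO had 765 and 747 and iHEA 699 and 672 (interaction -0.74, adjusted p = 0.000258). *Lbp*, the lipopolysaccharide-binding protein, rose from 54.0 and 54.2 to 78.4 and 72.0 CPM in 2D with 1001 to 1165 in the 3D libraries and an interaction of -0.62 (adjusted p = 0.00185). Both were called in all 8 fits without 1 library. *Lcn2* (above), *Socs3*, the feedback inhibitor of gp130 signaling (interaction -0.48, adjusted p = 0.0207), and *Il6ra*, the interleukin-6 receptor, were the others, and the count was 2 to 3 without 1 library of 2D-iH, 2D-iHE or iHLO and 7 without either iHEA library.

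**Figure D4:**
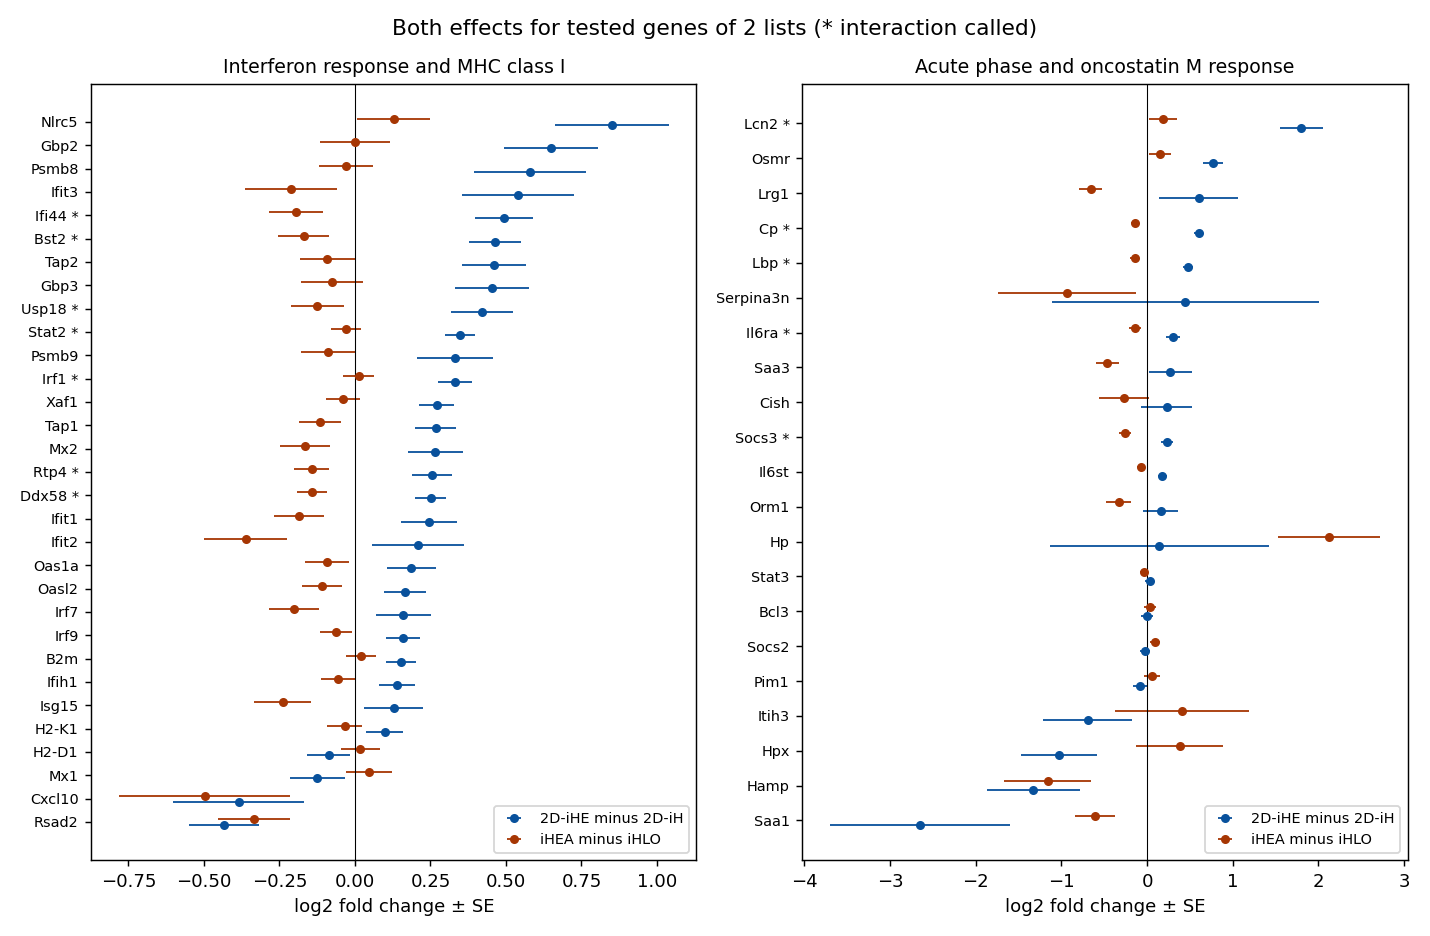
Log2 fold change with its standard error in 2D (blue) and in 3D (brown) for tested genes of the interferon response and MHC class I list (31 of the 32 drawn, left) and the acute phase and oncostatin M list (all 21 drawn, right), ordered by the 2D change, with asterisks at the 7 and 5 interaction calls. Most interferon response genes lie right of 0 in 2D, with a median of 0.26, and left of 0 in 3D, with a median of -0.10.

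Hypoxia and glycolysis genes had a lower interaction for 4 of the 5 calls among 33 tested genes (15.2%), with a list median of -0.17. Besides *Car9* these were *Bnip3*, a mitophagy receptor, with 57.3 and 57.1 CPM in 2D-iH against 60.4 and 66.5 in 2D-iHE, while iHLO had 45.4 and 39.2 and iHEA 34.2 and 32.3 (interaction -0.49, adjusted p = 0.0261), *Egln3*, an oxygen-sensing prolyl hydroxylase that fell by 0.59 in 3D (interaction -0.41, adjusted p = 0.0354), and *Pdk1*, which limits entry of pyruvate into mitochondria. *Bnip3* and *Egln3* were each kept in 3 of 8 fits. *Slc2a3*, the glucose transporter GLUT3, went the other way, from 6.80 and 6.63 to 2.54 and 2.58 CPM in 2D with 83.7 to 124 CPM in the 3D libraries (interaction 1.08, adjusted p = 0.0126), and lost its call without the first 2D-iH library or either 2D-iHE library. The list count was 2 to 5 without 1 library of 2D-iH, 2D-iHE or iHLO, and 15 and 6 without the first and the second iHEA library. No list member rose in iHEA and 5 fell, while 5 rose and 5 fell in 2D-iHE. The core letters of the hypoxia response element (ACGTG, both strands) were in 21.7% of all promoter windows and in 15 of 29 windows of this list (51.7%). They were in 3 of the 4 windows of called genes, those of *Car9*, *Bnip3* and *Egln3*, where they are in capitals, and in *Bnip3* both strands match within CACGTG, which is also an E-box.
Car9, chr4:43506776-43507025, + strand: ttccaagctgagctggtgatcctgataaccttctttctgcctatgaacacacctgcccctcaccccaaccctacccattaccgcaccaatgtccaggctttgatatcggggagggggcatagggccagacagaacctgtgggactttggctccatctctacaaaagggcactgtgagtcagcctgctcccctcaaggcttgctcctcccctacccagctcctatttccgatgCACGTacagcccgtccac
Bnip3, chr7:138909507-138909756, - strand: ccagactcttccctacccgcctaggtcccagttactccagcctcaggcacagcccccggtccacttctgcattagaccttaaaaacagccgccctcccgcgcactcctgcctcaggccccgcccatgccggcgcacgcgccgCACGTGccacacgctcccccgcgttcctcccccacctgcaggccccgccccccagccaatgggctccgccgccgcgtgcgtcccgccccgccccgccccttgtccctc
Egln3, chr12:54203875-54204124, - strand: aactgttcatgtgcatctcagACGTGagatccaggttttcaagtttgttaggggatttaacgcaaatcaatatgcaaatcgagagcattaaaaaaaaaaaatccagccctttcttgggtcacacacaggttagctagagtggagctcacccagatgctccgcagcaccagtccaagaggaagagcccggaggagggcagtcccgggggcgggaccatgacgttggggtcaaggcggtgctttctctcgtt

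Junction and bile duct genes were called in the other direction. All 7 calls among 37 tested genes for junctions and polarity (18.9%) were higher in 3D, with a list median of 0.17, and 8 genes rose in iHEA with none falling, while 1 rose and 4 fell in 2D-iHE. The calls were *Cdh17* and *Gjb2* (above), *Dsg2*, a desmosomal cadherin, *Marveld2*, the tricellulin of tricellular junctions, *Ocln*, the tight junction protein occludin, and, named after their values were seen, the desmosomal *Dsc2* and *Dsp*. *Marveld2* had 28.7 and 28.2 CPM in 2D-iH against 22.1 and 21.5 in 2D-iHE, while iHLO had 68.0 and 63.8 and iHEA 74.1 and 77.7 (interaction 0.59, adjusted p = 0.0034). *Dsg2* had 23.7 and 21.5 CPM in 2D-iH against 15.9 and 17.7 in 2D-iHE, while iHLO had 176 and 173 and iHEA 196 and 215 (interaction 0.67, adjusted p = 0.00355), not called without the first 2D-iHE library. In both genes the flat co-culture was lowest and the assembloid highest of the 4 conditions. The count of 7 was 2 or 3 without 1 library of 2D-iH, 2D-iHE or iHLO, and 9 and 11 without the first and the second iHEA library.

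Of 14 tested cholangiocyte markers, 4 (28.6%) were called, all higher in 3D with a list median of 0.30, and 3 genes of the list were called without any one library of 2D-iH, 2D-iHE or iHLO. *Sox9* was lost in each of these 6 fits, and without the second iHLO library *Krt19* was lost too and the 3 include 1 gene outside these 4. *Epcam* and *Sox9* had changed in 3D, whereas *Anxa13*, an annexin of apical membranes, and *Krt19*, a keratin of bile ducts, had changed in 2D. *Krt19* had 984 and 1055 CPM in 2D-iH against 870 and 771 in 2D-iHE, while iHLO had 736 and 691 and iHEA 848 and 812, so iECs went with a narrower gap between the formats (interaction 0.53, adjusted p = 0.0071, not called without the second iHLO library). *Anxa13* had 98.1 and 95.6 CPM in 2D-iH and 64.9 and 58.8 in 2D-iHE, with 136 to 154 in the 3D libraries (interaction 0.57, adjusted p = 0.00395). The 17 markers summed to 2530 and 2630 CPM in 2D-iH against 2460 and 2290 in 2D-iHE, while iHLO had 2790 and 2750 and iHEA 2990 and 3060.

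Of 28 tested TGF-β and BMP pathway genes, 6 (21.4%) were called, 4 higher and 2 lower in 3D, with a list median of 0.00. The 4 higher ones are BMP targets: *Id2*, *Id1* and *Id3*, inhibitors of helix-loop-helix transcription factors, and *Smad6*, an inhibitory SMAD, with interactions of 0.72, 0.39, 0.38 and 0.60. *Id2* had 78.6 and 86.0 CPM in 2D-iH against 44.6 and 45.1 in 2D-iHE, while iHLO had 241 and 213 and iHEA 190 and 218, a fall of 0.88 ± 0.082 in 2D (adjusted p = 5.52e-05) and a change of -0.15 in 3D that was not called. Of the lower ones, *Ccn2* is the connective tissue growth factor, which responds to TGF-β and YAP. *Ccn2* had 439 and 445 CPM in 2D-iH against 593 and 613 in 2D-iHE, while iHLO had 57.7 and 53.3 and iHEA 50.6 and 46.3 (interaction -0.64, adjusted p = 0.00147). *Id2* and *Ccn2* were called in all 8 fits without 1 library, and the list count was 3 to 5 without 1 library of 2D-iH, 2D-iHE or iHLO and 10 without either iHEA library. *Amotl2*, a YAP-binding target of YAP, and *F3*, tissue factor, were further calls, at -0.39 and 0.61, kept in 4 and 2 of 8 fits. With *Ccn2* they were the 3 calls among 23 YAP and TEAD genes (13%).

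Of the collagen, laminin, fibronectin and integrin genes, those called all had a lower interaction, which is not a lower level in 3D. The collagen list had 3 calls among 22 genes (13.6%, median -0.33), *Col1a1*, *Plod2* and *Col4a5*, a basement membrane chain that rose in 2D from 67.7 and 72.4 to 90.0 and 90.1 CPM and had 32.03 to 37.6 CPM in the 3D libraries (interaction -0.52, adjusted p = 0.00692). In 2D-iHE 4 collagen genes rose and none fell, while in iHEA 3 rose and 3 fell. The laminin, fibronectin and integrin list had 3 calls among 24 genes (12.5%, median -0.18), *Lamb1*, *Hspg2*, the basement membrane proteoglycan perlecan (-0.42), and *Itgb5*, an integrin chain that binds vitronectin (-0.38), and 7 rose in 2D-iHE with none falling, while in iHEA 2 rose and 2 fell. *Col4a5*, *Itgb5* and *Hspg2* were kept in 6, 4 and 3 of 8 fits, and *Col4a5* and *Hspg2* were not called with all 14 libraries. The summed fibroblast and mesenchymal markers, which rested mostly on *Vim* and *Fn1*, were higher in both 2D-iHE libraries than in both 2D-iH libraries. In 3D the iHEA sums lay on both sides of those of iHLO. Of the 17 tested markers, 2 were called higher in 2D-iHE and none lower, and *Col1a1* is also in the collagen list. The part of these markers in the changes of the matrix genes was not tested.

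Among liver function genes, 2 of 8 tested genes of bile acid synthesis and transport (25%), 2 of 15 hepatocyte markers (13.3%) and 2 of 30 cytochrome P450 and conjugation genes (6.67%) were called. *Abcc2*, the canalicular exporter of conjugated bilirubin (chromosome 19, from 43782192 to 43840740), had 10.03 and 9.63 CPM in 2D-iH against 4.05 and 3.34 in 2D-iHE, while iHLO had 1.91 and 1.53 and iHEA 2.38 and 2.15 (interaction 1.79 ± 0.25, adjusted p = 0.00263). *Abcc3*, the basolateral exporter of the same family, fell in 2D from 402 and 410 to 281 and 275 CPM with 448 to 511 in the 3D libraries (interaction 0.62, adjusted p = 0.002). Both bile acid transport genes held in all 8 fits without 1 library. *Ugt2b34*, a glucuronosyltransferase, fell by 0.82 in 2D with 369 and 374 CPM in 2D-iH and 206 and 214 in 2D-iHE (interaction 0.64, adjusted p = 0.00103), and *Gstm1*, a glutathione transferase, fell by 0.41 in 3D (interaction -0.31, adjusted p = 0.0281). *Cebpa*, a transcription factor of mature hepatocytes, rose in 2D from 2.31 and 2.83 to 4.53 and 4.44 CPM (interaction -0.78, adjusted p = 0.0419), kept in 2 of 8 fits and not called by DESeq2 or with a GC and length trend removed, and *Hnf4a* fell in 2D from 236 and 240 to 192 and 197 CPM (interaction 0.40, adjusted p = 0.00893), kept in 6. Since *Hnf4a* was also delivered as a lentiviral gene, its counts may hold reads of both copies.

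Growth factors for hepatic and endothelial exchange had 5 calls among 37 tested genes (13.5%, 4 higher and 1 lower, median -0.06). *Fgf1*, a fibroblast growth factor, had 56.9 and 58.4 CPM in 2D-iH against 29.6 and 30.9 in 2D-iHE, while iHLO had 27.8 and 27.5 and iHEA 30.0 and 29.3 (interaction 1.03 ± 0.084, adjusted p = 6.93e-05). The flat culture without iECs stood apart, and the other 3 conditions lay within 27.5 to 30.9 CPM. *Areg* and *Btc*, ligands of the EGF receptor, fell in 2D, *Areg* from 186 and 172 to 121 and 120 CPM (interaction 1.00, adjusted p = 0.00301) and *Btc* from 31.98 and 34.6 to 22.2 and 24.8 (interaction 0.57, adjusted p = 0.0285, kept in 3 of 8 fits). *Pdgfb*, the platelet-derived growth factor that draws mural cells to vessels, rose in 2D from 41.9 and 46.4 to 71.4 and 65.1 CPM with 27.8 to 30.0 in the 3D libraries (interaction -0.68, adjusted p = 0.00375). The fifth call was *Efnb2*, an ephrin ligand.

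Stress lists had 0 to 4 calls each. *Gpx2*, an epithelial glutathione peroxidase, had 2.65 and 3.14 CPM in 2D-iH, 1.17 and 1.15 in 2D-iHE, and 36.7 to 46.2 in the 3D libraries (interaction 1.53, adjusted p = 0.00234), and *G6pdx*, the first enzyme of the pentose phosphate pathway, fell in 2D from 136 and 136 to 100 and 96.8 CPM (interaction 0.39, adjusted p = 0.00671). With *Me1* (0.31) and *Mt1* (-0.39) they were the 4 calls among 22 oxidative stress genes (18.2%), of which 11 fell and none rose in 2D-iHE. *Atf3* and *Egr1*, immediate early transcription factors, differed by 0.58 and 0.55 (2 of 27 tested, 7.41%). The chaperones *Hsph1* and *Hsp90aa1* differed by 0.33 and 0.30 (2 of 16 heat shock genes, 12.5%). The next calls are from other lists, beside 3.14% of all tested genes. *Acss2*, an acetyl-CoA synthetase, differed by 0.36 (fatty acid synthesis, 2 of 13, 15.4%). *Muc13*, a membrane mucin, differed by 1.19 (mucosal secretion, 2 of 18, 11.1%). *Mmp15*, a membrane metalloproteinase, differed by 0.39 (matrix proteases, 2 of 21, 9.52%). *Tnfaip3*, a brake on NF-κB, differed by -0.43 (chemokines and NF-κB, 1 of 27, 3.7%). *Cd14*, a lipopolysaccharide receptor, differed by -0.39 (macrophage and blood, 1 of 4, 25%). *Sox17*, an endothelial and endodermal transcription factor, differed by 0.31 (endothelial, 1 of 15, 6.67%). *Egr1*, *Mmp15* and *Cd14* were kept in 3 of 8 fits, *Hsph1*, *Hsp90aa1*, *Acss2*, *Me1*, *Mt1* and *Sox17* in 2, *Tnfaip3* in 4, *Muc13* in 6 and *Atf3* in 7, and *Muc13* had 192 to 237 CPM in the 3D libraries.

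Some lists had no interaction call by edgeR's quasi-likelihood test. These were proliferation (24 tested genes), DNA replication (28), cholesterol synthesis and SREBP2 targets (25), fatty acid oxidation (19), the Notch pathway (16), ATF4 and the unfolded protein response (32), respiratory chain subunits (39) and cytosolic ribosomal proteins (45), with list medians between -0.09 and 0.17. Of their 228 tested genes, 28 had an unadjusted p under 0.05, while DESeq2 called 3 (1 each of the cholesterol, Notch and ATF4 lists) and limma voom called 1, of the ATF4 list. Of the cholesterol genes 11 fell and 1 rose in 2D-iHE and 2 fell in iHEA, and 6 ATF4 genes fell in 2D-iHE and 1 in iHEA, differences in call for which the interaction was not called. The 13 mitochondrially encoded genes were not analysed here.

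**Figure D5:**
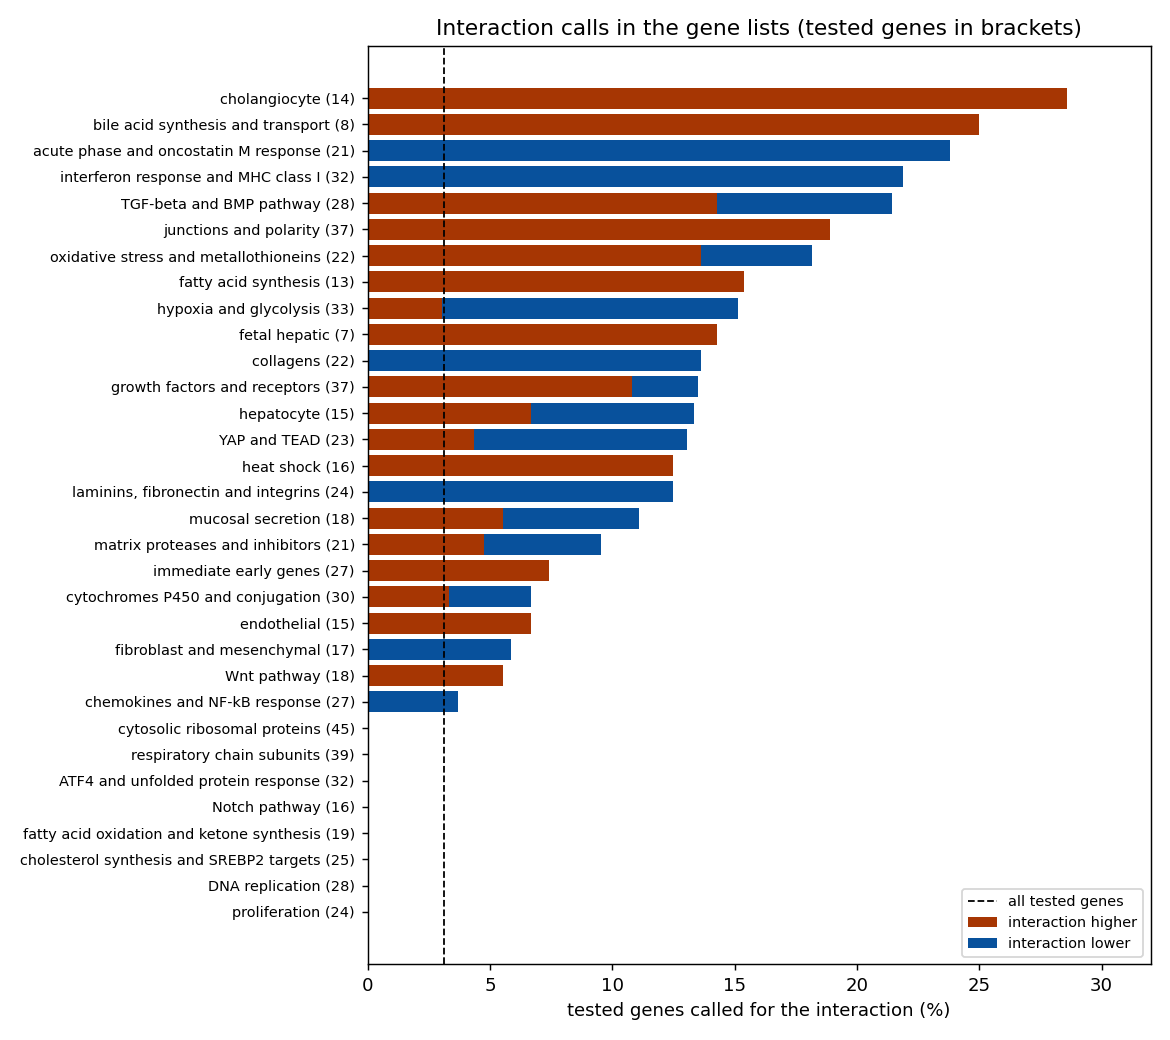
Percentage of the tested genes of each list of at least 7 tested genes that were called for the interaction (x axis), split into higher (brown) and lower (blue) in 3D, with the number of tested genes in brackets and the dashed line at the 3.14% of all tested genes. Cholangiocyte markers reach 28.6% and the 8 bile acid genes 25% with all calls higher, acute phase genes 23.8% and interferon response genes 21.9% with all calls lower. The lists were chosen with earlier results of these data known, so the line is no test of enrichment.

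The genes of the study's qRT-PCR panels were chosen by the study, most on these cultures and *Lox* and *Spp1* in the livers of transplanted mice, and are not independent evidence of a direction. Of the 14 tested genes listed here, edgeR called *Ocln* and *Hnf4a*, and DESeq2 also called *Ttr*. The list left out some genes of the liver panels. Among these was *Col1a1*, whose interaction of -3.44 was called by edgeR (adjusted p = 0.000498). *Ocln* had 20.3 and 20.5 CPM in 2D-iH against 16.6 and 16.3 in 2D-iHE, while iHLO had 161 and 158 and iHEA 166 and 185 (interaction 0.45, adjusted p = 0.0214, kept in 2 of 8 fits). *Cdh1*, the epithelial cadherin, had 221 and 223 CPM in 2D-iH against 224 and 226 in 2D-iHE, while iHLO had 462 and 458 and iHEA 511 and 566, with a called change of 0.23 in 3D and an interaction of 0.21 that was not called (adjusted p = 0.201). *Itgav* and *Itga5*, integrin chains that bind fibronectin and related matrix, had called changes of 0.27 and 0.29 in 2D and interactions of -0.27 and -0.26 (adjusted p = 0.194 and 0.178), and *Itgb1*, their partner chain, had -0.01 (adjusted p = 0.964). *Fn1*, fibronectin, had 202 and 197 CPM in 2D-iH against 278 and 277 in 2D-iHE, while iHLO had 249 and 163 and iHEA 449 and 177, where the first iHEA library stood apart (interaction 0.13, adjusted p = 0.925). Its direction depended on these libraries: the interaction was called at -0.69 without the first iHEA library (adjusted p = 0.00895) and at 0.65 without the second (adjusted p = 0.0126). *Ttr*, a thyroid hormone carrier, differed by 0.72 (adjusted p = 0.0996 with edgeR and 0.0288 with DESeq2), *Cdh2* by 0.32 (adjusted p = 0.456), *Spp1*, osteopontin, by -0.57 (adjusted p = 0.314) and *Hgf* by -0.58 (adjusted p = 0.797). *Cdh2* was called at 0.59 without the second iHEA library (adjusted p = 0.00354), and *Spp1* at -0.78 without the first (adjusted p = 0.0284), at -0.89 without the second iHLO library (adjusted p = 0.0308) and without the low-count filter (adjusted p = 0.000716). *Ttr* and *Itgav* were called without the second iHEA library (adjusted p = 0.0368 and 0.0386) and without the low-count filter (adjusted p = 0.00743 and 0.021), and *Itga5* and *Cdh1* without the first iHEA library (adjusted p = 0.0083 and 0.0102). The fitted value of *Alb* rested on the 210 counts of the first 2D-iH library, and that of *Lox*, a collagen crosslinking enzyme, on 8 counts in 1 iHEA library with 0 in the other 3D libraries, and edgeR called neither interaction (adjusted p = 0.2 and 0.306). Without the second iHEA library both were called (adjusted p = 0.0399 and 0.0304), and *Alb* was also called without the second 2D-iH library (adjusted p = 0.0157) and without the low-count filter (adjusted p = 2.16e-14). Without the first iHEA library the fitted value of *Lox* turned to -0.71 (adjusted p = 1). *Pou5f1*, the lentiviral *Oct4*, had 11 to 27 counts in the 8 libraries (interaction 1.08, adjusted p = 0.359).

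The reference tissues of the series, which the interaction did not use, placed the classes. Of all tested genes, 85.1% had at least 1 CPM in fibroblasts and 79.4% in adult liver. Of the 152 genes that fell in 2D-iHE alone, 58.6% had this level in fibroblasts and 65.8% in adult liver, and of the 149 that rose in 2D-iHE alone, 87.9% and 88.6%. Among genes with opposite responses, 5 of the 11 that fell in 2D and 11 of the 12 that rose in 2D had it in fibroblasts. Of the 24 genes that rose in iHEA alone 45.8% had it in fibroblasts, and of the 33 that fell 75.8%. The level in the cultures differed as well: 72.5% of the genes that rose in 2D-iHE alone and 59.2% of those that fell were higher in iHLO than in 2D-iH, against 50.7% of all tested genes. These shares are given without a test, and median GC content was 50.5% and 52.8% in the genes that fell and rose in 2D-iHE alone, against 49.7% over all.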

How the data were processed

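The deposited table holds raw counts per gene, made by the authors from paired-end reads with Trimmomatic 0.36 (version per the submitters' processing notes), HISAT2, Cufflinks and HTSeq on GRCm38. The equalization and log2 steps of the study's methods are not in these counts. From the counts, TMM factors, dispersions and the interaction were fitted with edgeR 4.0.16 (quasi-likelihood test, R 4.3.3) on the 8 culture libraries, with Benjamini-Hochberg adjustment over 13409 genes. CPM are TMM-scaled. Alternatives used DESeq2 1.42.0, limma 3.58.1, other filters and scalings, all 14 libraries, left-out libraries and a replicate block. The script was tested on simulated data.

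Named genes were interaction calls of at least 1 CPM in a condition with non-overlapping library differences: up to 5 each way for the opposite, 3D and 2D classes, up to 2 for the others, up to 4 a gene list, and the qRT-PCR panel and lentiviral genes. The members and lists were chosen with earlier results of these data known. Intervals and floors cover counting error only. A few genes that the lists and the rule for named genes hold are not reported here.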

Additional observations from a re-analysis of the deposited data

Results flagged for a closer look

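In each of the 85 named genes below, the response to endothelial-like cells differed between 3D and 2D by the test of the difference itself (edgeR's quasi-likelihood test, adjusted p under 0.05), and values in brackets are the interaction on the log2 scale. They are grouped by how many of the 8 fits without 1 library kept the call. All 8 fits kept it in 33 genes, which were *Ceacam1* (1.66), *Cdh17* (1.65), *Trpv3* (1.49), *Ms4a8a* (1.15), *Col1a1* (-3.44), *Clca3a1* (-1.69), *AU021092* (-0.95), *Ace* (-0.9), *Car9* (-0.81), *Apcdd1* (-1.46), *Armcx4* (-1.1), *Plod2* (-1.02), *Ildr1* (2.46), *Serpinb11* (2.44), *Clca4a* (2.32), *Fam107a* (-1.16), *Lamb1* (-1.06), *Slc40a1* (0.69), *Epcam* (0.82), *Anxa13* (0.57), *Abcc2* (1.79), *Abcc3* (0.62), *Ugt2b34* (0.64), *Id2* (0.72), *Ccn2* (-0.64), *Marveld2* (0.59), *Cp* (-0.74), *Lbp* (-0.62), *Gpx2* (1.53), *G6pdx* (0.39), *Fgf1* (1.03), *Areg* (1) and *Pdgfb* (-0.68). Calls kept in 7 of the 8 fits numbered 5, in *2210407C18Rik* (1.51), *Gbp5* (-1.35), *Krt19* (0.53), *Dsg2* (0.67) and *Atf3* (0.58). Calls kept in 6 of the 8 fits numbered 3, in *Hnf4a* (0.4), *Col4a5* (-0.52) and *Muc13* (1.19). Calls kept in 5 of the 8 fits numbered 3, in *Prap1* (3.43), *Tgm2* (-0.5) and *Slc2a3* (1.08). Calls kept in 4 of the 8 fits numbered 9, in *Trim9* (3.67), *Dsg3* (2.07), *Lcn2* (-1.61), *Ifi44* (-0.69), *Bst2* (-0.63), *Smad6* (0.6), *Amotl2* (-0.39), *Itgb5* (-0.38) and *Tnfaip3* (-0.43). Calls kept in 3 of the 8 fits numbered 13, in *Ndn* (2.82), *Iigp1* (-0.99), *Smtnl2* (-1.62), *Cd14* (-0.39), *Usp18* (-0.55), *Rtp4* (-0.4), *Bnip3* (-0.49), *Egln3* (-0.41), *Hspg2* (-0.42), *Socs3* (-0.48), *Egr1* (0.55), *Mmp15* (0.39) and *Btc* (0.57). Calls kept in 2 of the 8 fits numbered 17, in *Sox9* (1.98), *Ifitm6* (2.24), *Alpl* (1.43), *Gipc2* (0.59), *Ctla2a* (-3.88), *Grap* (-1.77), *Sox17* (0.31), *Cebpa* (-0.78), *Acss2* (0.36), *Me1* (0.31), *Gstm1* (-0.31), *Wnt7b* (0.39), *F3* (0.61), *Hsph1* (0.33), *Hsp90aa1* (0.3), *Mt1* (-0.39) and *Ocln* (0.45). Calls kept in 1 of the 8 fits numbered 2, in *Gjb2* (4.18) and *Havcr2* (0.77).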

How the results depend on the processing

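No call of the interaction changed its sign under any alternative. The number of calls was within 1.5 times the 421 with a stricter filter (444), DESeq2 size factors (423), total counts (441), the DESeq2 test (459), limma voom (418), all 14 libraries (330) and a GC and length trend (619), which was chosen after seeing the data. Of the genes named by the rule, limma voom did not call *Iigp1*, *Ifitm6*, *Havcr2*, *Alpl* and *Wnt7b*, and the fit to all 14 libraries did not call *Ndn*, *Smtnl2*, *Rtp4*, *Bnip3*, *Gstm1*, *Wnt7b*, *Amotl2*, *Col4a5*, *Hspg2*, *Hsp90aa1*, *Mt1* and *Mmp15*. *Iigp1* was also lost with DESeq2 size factors and *Sox17* with the replicate block, and of the 23 opposite genes *Pxdn* and *Ehd2* were not called with all 14 libraries. Both responses of these 23 genes stayed called with opposite sign in 19 by the DESeq2 test, 18 by limma voom and 15 with all 14 libraries. The causes of the changes below were not tested, except that a minimum change leaves fewer genes by construction.

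Without the low-count filter, 389 interactions were higher and 512 lower, with 94 opposite, 203 in 3D alone, 478 in 2D alone, 38 of the same sign, 88 with neither, 881 responses in 3D and 166 calls in the lists. With a log2 difference of at least 1, these were 43 and 16, then 7, 14, 33, 0 and 5, with 62 responses in 3D, 73 in 2D and 13 list calls. With the GC and length trend removed, 315 were higher, with 51 opposite, 90 in 3D alone, 15 of the same sign, 49 with neither and 498 responses in 3D. With limma voom, 5 were of the same sign and 1665 genes responded in 2D.

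The replicate block used the second number of the labels and dropped the second iHEA library, whose column repeats the number of the first. Same-numbered libraries did not deviate together (correlations -0.045, -0.032 and 0.007), so the numbers were not read as pairs. With the replicate block, 384 interactions were higher and 402 lower, with 66 opposite, 152 in 3D alone, 454 in 2D alone, 48 of the same sign, 66 with neither, 624 responses in 3D, 1953 in 2D and 141 list calls. Of the uncalled panel genes, it called *Alb* (adjusted p = 4.55e-06), *Fn1* (1.03e-05), *Cdh2* (0.002), *Itgav* (0.0097), *Ttr* (0.022), *Lox* (0.0289) and *Spp1* (0.0298).

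Leaving out each library in turn gave 64 to 429 higher and 56 to 534 lower interactions, 3 to 93 opposite, 18 to 203 in 3D alone, 80 to 548 in 2D alone, 0 to 44 of the same sign, 7 to 95 with neither, 90 to 739 responses in 3D, 257 to 2007 in 2D and 31 to 152 list calls. Of the panel genes without a call, the interaction changed its sign over these 8 fits in *Fn1* (-0.69 to 0.65), *Lox* (-0.71 to 5.31), *Cdh2* (-0.047 to 0.59), *Hgf* (-1.06 to 0.15) and *Itgb1* (-0.032 to 0.028). The highest counts came without an iHEA library, where the lone remaining library is assumed to vary like the other conditions. With 2 libraries a condition, the depth and the spread limit the smallest difference that could be called, and a gene without a call is not shown to respond alike.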
